A study of Mus musculus with 8 samples.

Results

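Insulin, insulin-like growth factor (IGF) and leptin receptor signalling was followed in mouse islets through 9 genes taken by name: the receptor genes Insr, Igf1r and Lepr, the receptor substrate genes Irs1 and Irs2, the PI3-kinase subunit gene Pik3r1, the kinase genes Akt1 and Akt2 and the feedback inhibitor gene Socs3. All 9 were among the 20715 genes listed for each library. Of the 9, 8 reached 1 FPKM (fragments scaled to transcript length and to the library's total) in at least 4 libraries and were tested, and Lepr lay below this filter. In ob/ob islets Akt1, Akt2 and Igf1r fell to 0.704, 0.776 and 0.722 times their mean level in ob/+ islets, and Socs3 rose 1.83-fold. Insr, Irs1, Irs2 and Pik3r1 did not pass the test. Within each library, however, the ratio of Igf1r to Insr was lower and the ratio of Irs2 to Irs1 higher in ob/ob, with no overlap between the groups.

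Islets, isolated from the pancreas and picked by hand, were taken at 12 weeks of age from mice on the C57BL/6 background. Of the 8 libraries, ob/+ islets gave 4 and ob/ob islets the other 4. The ob allele is a mutation of Lep, the gene of the fat cell hormone leptin. The ob/+ controls carry 1 mutant copy as well, ob/ob mice carry no intact copy, and the mutation is present in every tissue. The labels do not say whether each library is a separate mouse, nor the sex, so a p-value here reflects only library-to-library spread, some of which may be technical. Lep was listed without a value in each library, so its transcript gives no check of the labels.

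The receptors for insulin and for IGF are closely related tyrosine kinases. Once bound by ligand they phosphorylate IRS proteins, which dock PI3-kinase, whose lipid product recruits and activates AKT. AKT in turn phosphorylates FOXO transcription factors, which then leave the nucleus, and Irs2 is a known FOXO target. Leptin binds a cytokine receptor coupled to the kinase JAK2 and the transcription factor STAT3, which induces Socs3, and SOCS3 protein dampens both leptin and insulin receptor signalling. In beta cells Irs2 is the substrate known to be needed for beta cell mass, and leptin is known to restrain insulin secretion.

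The stretches upstream of the RefSeq start of the Irs genes are shown because Irs1 and Irs2 are compared with each other below and because they share letters known from the Irs2 promoter. Among 32851 windows of 300 bases around RefSeq starts (build GRCm38.p6, 250 before and 50 after the start), 9 windows held CACGTG (an E-box) with TGTTTTG (the core of an insulin response element, bound by FOXO) starting 0 to 12 bases after the first base of the E-box, on either strand. These 9 windows are 0.0274% of all and belong to 8 genes, 3 of which are Irs1, Irs2 and Irs4. The letters and the spacing were chosen after these sequences were read. Capitals mark both motifs, which overlap in Irs1:
Irs1 (chr1:82291510-82291579, minus strand): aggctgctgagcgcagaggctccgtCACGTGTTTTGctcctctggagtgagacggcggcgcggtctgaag
Irs2 (chr8:11008930-11008999, minus strand): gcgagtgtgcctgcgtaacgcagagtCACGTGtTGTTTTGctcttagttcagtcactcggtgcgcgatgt
Irs4 (chrX:141725327-141725396, minus strand): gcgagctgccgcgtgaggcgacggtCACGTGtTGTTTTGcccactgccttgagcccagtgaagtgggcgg

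The E-box begins 115 bases before the RefSeq start in Irs1 and 44 bases before it in Irs2. For Irs2 the gene position given below, from GENCODE, starts further downstream than the RefSeq start. Alone, CACGTG is in 7.15% and TGTTTTG in 6.28% of the windows, on either strand. The stretch upstream of the RefSeq start of Socs3 is shown because STAT3 is its known activator and Socs3 was the member that rose. The gene position of Socs3 given below, from GENCODE, starts further upstream, so this stretch lies inside that gene span. Capitals mark TTCNNNGAA, the letters that STAT proteins bind, whose first base is 154 bases before the start:
Socs3 (chr11:117969437-117969556, minus strand): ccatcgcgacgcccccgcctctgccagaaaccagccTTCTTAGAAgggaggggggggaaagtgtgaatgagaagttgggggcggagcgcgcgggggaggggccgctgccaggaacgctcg

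TTCNNNGAA is in 8.3% of the windows and reads the same on both strands. The window of Akt2, a gene that was lower in ob/ob, also held a match, 160 bases before the start. A match describes these letters and does not show that a protein binds there. Of the 9 genes 8 had a window in the table, and Insr was not among them.

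The islet label was checked against markers. All 10 beta cell markers, among them both insulin genes, were above 0 in each library, and their summed level was 398000 to 501000 FPKM in ob/+ and 587000 to 710000 in ob/ob. The insulin genes make up most of that sum, and by limma 2 of the 10 markers were higher (Ins2 and Iapp) and 4 lower (Mafa, Slc2a2, Ucn3 and Slc30a8, at 0.407 to 0.659 times the ob/+ mean). The 9 alpha cell markers summed to 25800 to 32200 FPKM in ob/+ and 9590 to 13200 in ob/ob, a sum made up mostly of Gcg. Of these 9, 6 were lower by limma and 3 higher (Gc, Tmem27 and Ttr, at 4.72, 1.97 and 1.25 times the ob/+ mean). The 6 delta and PP cell markers summed to 12600 to 17200 and 3750 to 5910 FPKM, with 5 of 5 tested lower. Transcripts of 39 acinar genes, from the enzyme-making cells around islets, took 7.69% to 26.1% of summed FPKM in ob/+ and 3.34% to 11.6% in ob/ob (exact two-sided permutation p = 0.143 for their summed FPKM). In whole islets fewer cells of a type and less RNA per cell cannot be told apart, and the part of cell makeup in the results was not tested. Summed FPKM ran from 820968 to 1004230, and absolute depth is unknown.

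The library ob/+ 4 stood apart in a way that touches the long genes among the 9. It was the library richest in acinar transcripts, and over all tested genes its median deviation from the other ob/+ libraries was -0.297 on the log2(FPKM + 1) scale. That deviation grew with transcript length, from -0.018 for 478 genes with a longest transcript under 1 kb to -0.498 for 632 genes of 8 kb or more. In ob/ob 3 the trend ran the other way, from 0.036 to 0.244. It also rose in ob/+ 2, from 0.036 to 0.193, and in ob/+ 3, from -0.082 to 0.229. The deviations of ob/+ 2 and ob/+ 3 are taken from a mean that includes ob/+ 4. Insr, Igf1r, Irs1, Irs2 and Pik3r1 have longest annotated transcripts of 6323 to 11409 bases, and in ob/+ 4 they stood at 43.8% to 67.5% of their mean in the other ob/+ libraries. Akt1, Akt2, Socs3 and Lepr, at 2552 to 5542 bases, stood at 84.7% to 94.2%. The cause of the trend was not tested.

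**Figure D1:**
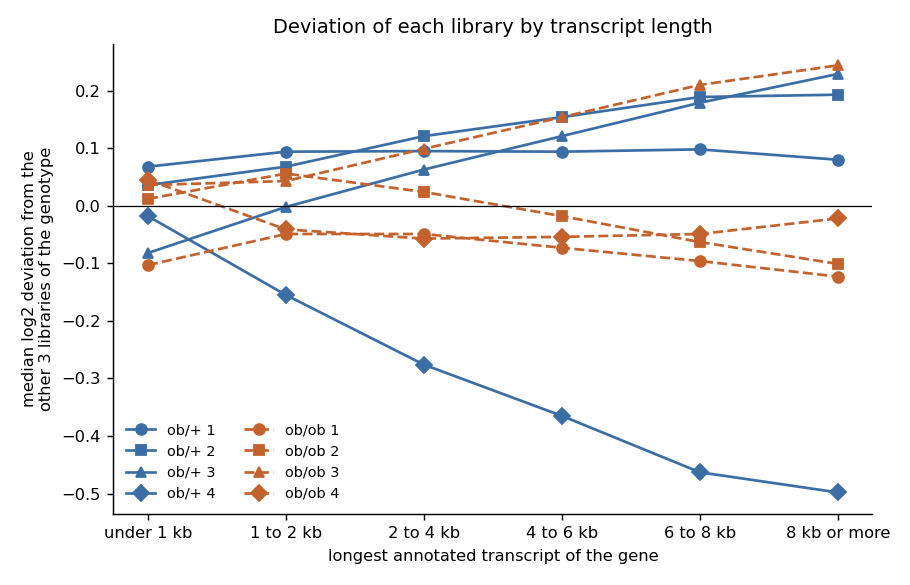
Median log2 deviation of each library (y axis, log2(FPKM + 1) units) from the other 3 libraries of its genotype, for tested genes binned by the length of their longest annotated transcript (x axis). The line of ob/+ 4 falls from -0.018 to -0.498 with length, while ob/ob 3 rises from 0.036 to 0.244. Those of ob/+ 2 and ob/+ 3 rise as well, to 0.193 and 0.229.

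By mean level in ob/+, Akt1 and Akt2 came first, at 45.7 ± 3.33 and 28.6 ± 1.47 FPKM (SD, n = 4), and each library gave the order Akt1 above Akt2 above the other 7 genes. Pik3r1, Insr, Irs2 and Igf1r followed at 5.12 to 8.33 FPKM, with ranges that overlapped between neighbours. Socs3, Irs1 and Lepr were lowest. In ob/ob the order from Irs2 through Insr and Pik3r1 to Socs3 lay between 7.05 and 5.75 FPKM, again with overlapping ranges, and Igf1r stood below Socs3 in each ob/ob library. FPKM is scaled to transcript length, but a length trend remained in some libraries, so the order of genes of unlike length is approximate.

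**Figure D2:**
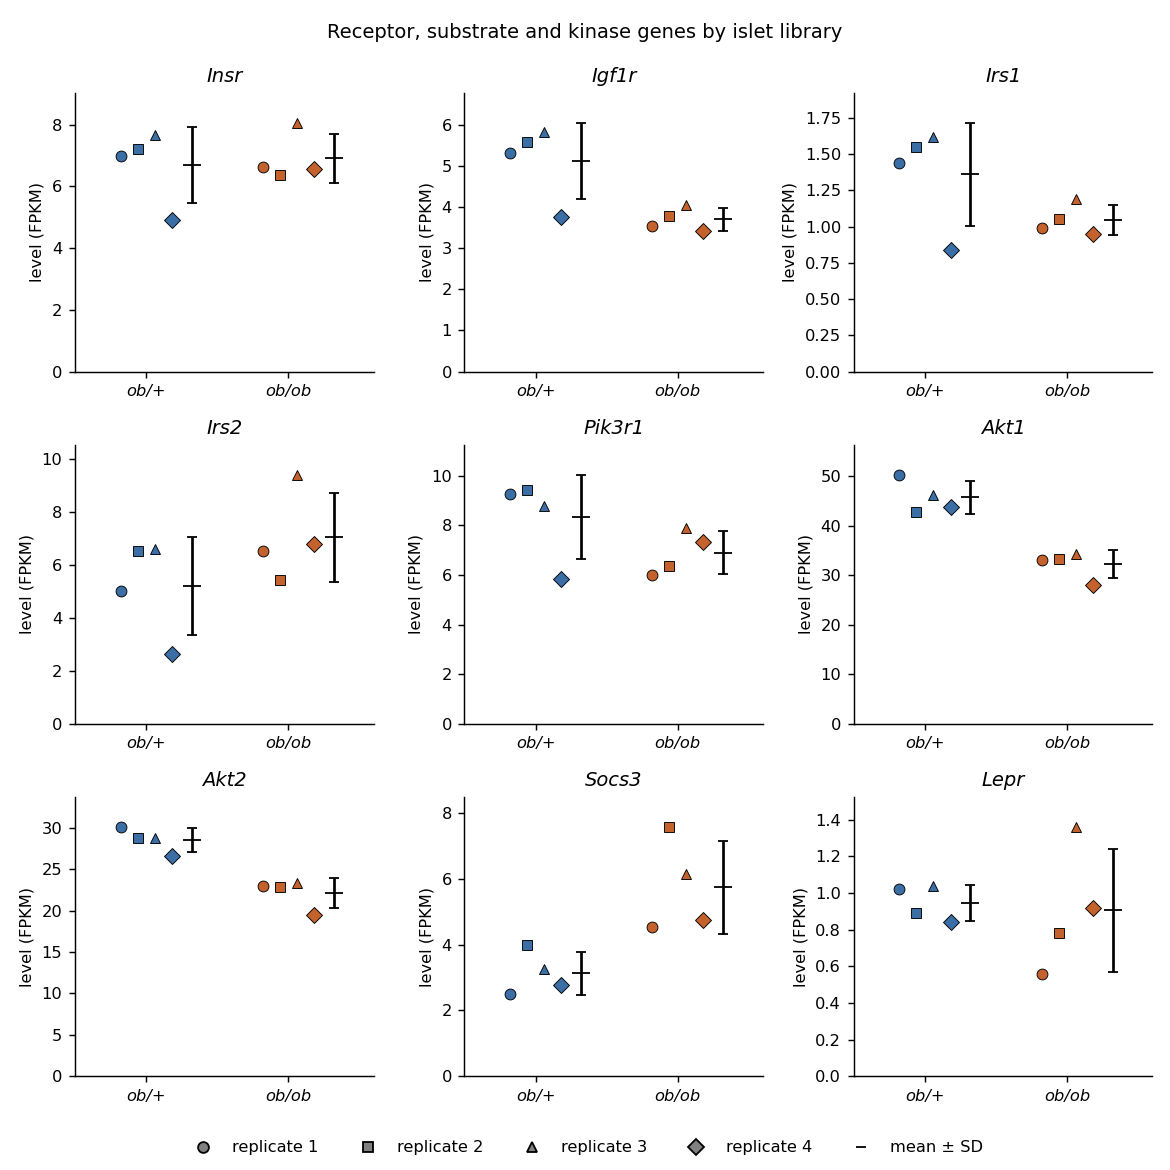
FPKM of the 9 genes (y axes, each from 0) in the 4 ob/+ (blue) and 4 ob/ob (orange) libraries, with a marker shape for each replicate number and the mean ± SD as a bar. Akt1, Akt2 and Socs3 show no overlap between the groups, and ob/+ 4 (blue diamond) is the lowest ob/+ library for 7 of the 9 genes.

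Akt1, Akt2 and Igf1r fell and Socs3 rose, so 3 of the 8 tested genes were lower and 1 was higher in ob/ob (limma, Benjamini-Hochberg adjusted p under 0.05). Across all 11747 tested genes 10.6% were lower and 8.21% higher by the same rule. Of all calls 43.7% were higher, a share that became 66.9% when libraries were scaled without the 10 most abundant genes and 6.35% when scaled without the acinar genes. The groups did not overlap for 3 of the 8 genes, lower for 2 and higher for 1, against 20.5% of all tested genes, 10.7% lower and 9.75% higher. Without ob/+ 4 the counts were 5 lower and 1 higher of 8, where 32.8% of all tested genes were lower and 9.42% higher. Without ob/+ 1, ob/+ 3 or ob/ob 4, 1 gene was lower, Akt1. With the length trend removed from each library, an alternative added after the data were seen, 3 were lower and 2 higher, where 32.7% of 11403 genes were called, 16% lower and 16.7% higher. Without ob/+ 4 and ob/ob 1, the library of each genotype richest in acinar transcripts, 4 were lower and 1 higher, where 35.6% of all tested genes were called, 26.4% lower and 9.19% higher. Scaling without the acinar genes gave 5 lower and 1 higher, where 64.7% of all were called, 60.6% lower and 4.1% higher. Scaling without the 10 most abundant genes gave 1 lower and 1 higher, where 16.2% of all were called, 5.35% lower and 10.8% higher.

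Igf1r (chromosome 7, 67952827 to 68233668, plus strand), which encodes the IGF1 receptor, was at 5.32, 5.57, 5.83 and 3.76 FPKM in ob/+ 1 to 4. In ob/ob 1 to 4 it was at 3.54, 3.79, 4.05 and 3.41 FPKM. The ob/ob libraries lay below ob/+ 1, 2 and 3, and ob/+ 4 lay among them. The log2 fold change was -0.37 ± 0.13 (SE, 95% interval -0.64 to -0.1, limma adjusted p = 0.0473). This call sits at the threshold: it held in 11 of 22 alternatives, was kept on leaving out ob/+ 4 (-0.49, adjusted p = 0.000574) or ob/ob 3 (-0.41, adjusted p = 0.0475), and was lost on leaving out each of the other 6 libraries (adjusted p = 0.0882 to 0.168).

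Insr (chromosome 8, 3122061 to 3279617, minus strand), the insulin receptor gene, was at 6.98, 7.22, 7.67 and 4.9 FPKM in ob/+ 1 to 4 and at 6.63, 6.38, 8.07 and 6.55 in ob/ob 1 to 4. The groups overlapped, with ob/+ 4 the lowest and ob/ob 3 the highest of the 8 libraries. The log2 fold change of 0.05 had a 95% interval of -0.22 to 0.32 (limma adjusted p = 0.827), and its sign turned in 5 of 23 alternatives, to -0.07 without ob/+ 4.

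The 2 receptor genes kept a nearly fixed ratio among the ob/+ libraries. Igf1r over Insr was 0.762, 0.771, 0.76 and 0.767 in ob/+ 1 to 4, the library with low values for both included. In ob/ob it was 0.534, 0.594, 0.502 and 0.521, below each ob/+ library. The mean log2 ratio differed by -0.51, a ratio 0.701 times that of ob/+ (two-sided exact permutation test, p = 0.0286, the minimum for groups of 4; adjusted p = 0.0381 over 8 ratios). As a share of the summed receptor FPKM, Igf1r took 43.4% ± 0.165 in ob/+ and 34.9% ± 1.66 in ob/ob (SD, n = 4). A ratio within a library does not depend on the library scaling. It shows that the genes changed unequally and not which of them changed.

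Irs1 (chromosome 1, 82233101 to 82291416, minus strand), a substrate of both receptors, was at 1.44, 1.55, 1.62 and 0.84 FPKM in ob/+ 1 to 4. The ob/ob libraries held 0.99, 1.05, 1.19 and 0.95 FPKM, below ob/+ 1 to 3 and above ob/+ 4. Irs1 differed by -0.2 ± 0.13 on the log2 scale (SE, 95% interval -0.46 to 0.07, limma adjusted p = 0.316). Without ob/+ 4 Irs1 passed as lower at -0.31 (limma adjusted p = 0.0326), in a fit that called 32.8% of all tested genes lower.

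Irs2 (chromosome 8, 10984681 to 11008458, minus strand), the main substrate in beta cells, was at 5.03, 6.53, 6.59 and 2.65 FPKM in ob/+ 1 to 4. In ob/ob it was at 6.53, 5.45, 9.41 and 6.8 FPKM. The groups overlapped, and the lowest and highest values were in ob/+ 4 and ob/ob 3, which had opposite length trends. In ob/+ 2 and ob/+ 3 the deviation also rose with length, and Irs2 there was at 6.53 and 6.59 FPKM. The log2 fold change of 0.41 ± 0.25 (SE, 95% interval -0.15 to 0.98) did not pass (limma adjusted p = 0.299), was 0.18 without ob/+ 4 (adjusted p = 0.363), and passed with the length trend removed (0.51, adjusted p = 0.0206). A gene on the opposite strand, not listed with a value, overlaps each of Insr, Irs1 and Irs2. Whether counting used strand is not given in the sources used here, so reads of these partners may be included.

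Set against each other within a library, the substrates separated the groups. Irs2 over Irs1 was 3.49, 4.21, 4.07 and 3.15 in ob/+ 1 to 4 and 6.6, 5.19, 7.91 and 7.16 in ob/ob 1 to 4, so each ob/ob library lay above each ob/+ library. The ratio was 1.79 times as high in ob/ob (log2 difference 0.84, exact two-sided permutation p = 0.0286, adjusted p = 0.0381 over 8 ratios). Without ob/+ 4 the difference was 0.76 and without ob/+ 1 it was 0.81, both without overlap and at exact permutation p = 0.0571. Igf1r over Insr kept exact permutation p = 0.0286 on leaving out any 1 library. Irs1 made up 21.3% ± 2.27 of the summed Irs1 and Irs2 FPKM in ob/+ and 13.2% ± 2.12 in ob/ob (SD, n = 4). Irs2 over Insr was 0.756 ± 0.164 in ob/+ and 1.01 ± 0.129 in ob/ob, with overlap (exact permutation p = 0.0857). Irs3 and Irs4 were listed at 0 to 0.22 and at 0 to 0.07 FPKM, so Irs4, whose upstream letters resemble those of Irs2, was near 0 in each library.

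**Figure D3:**
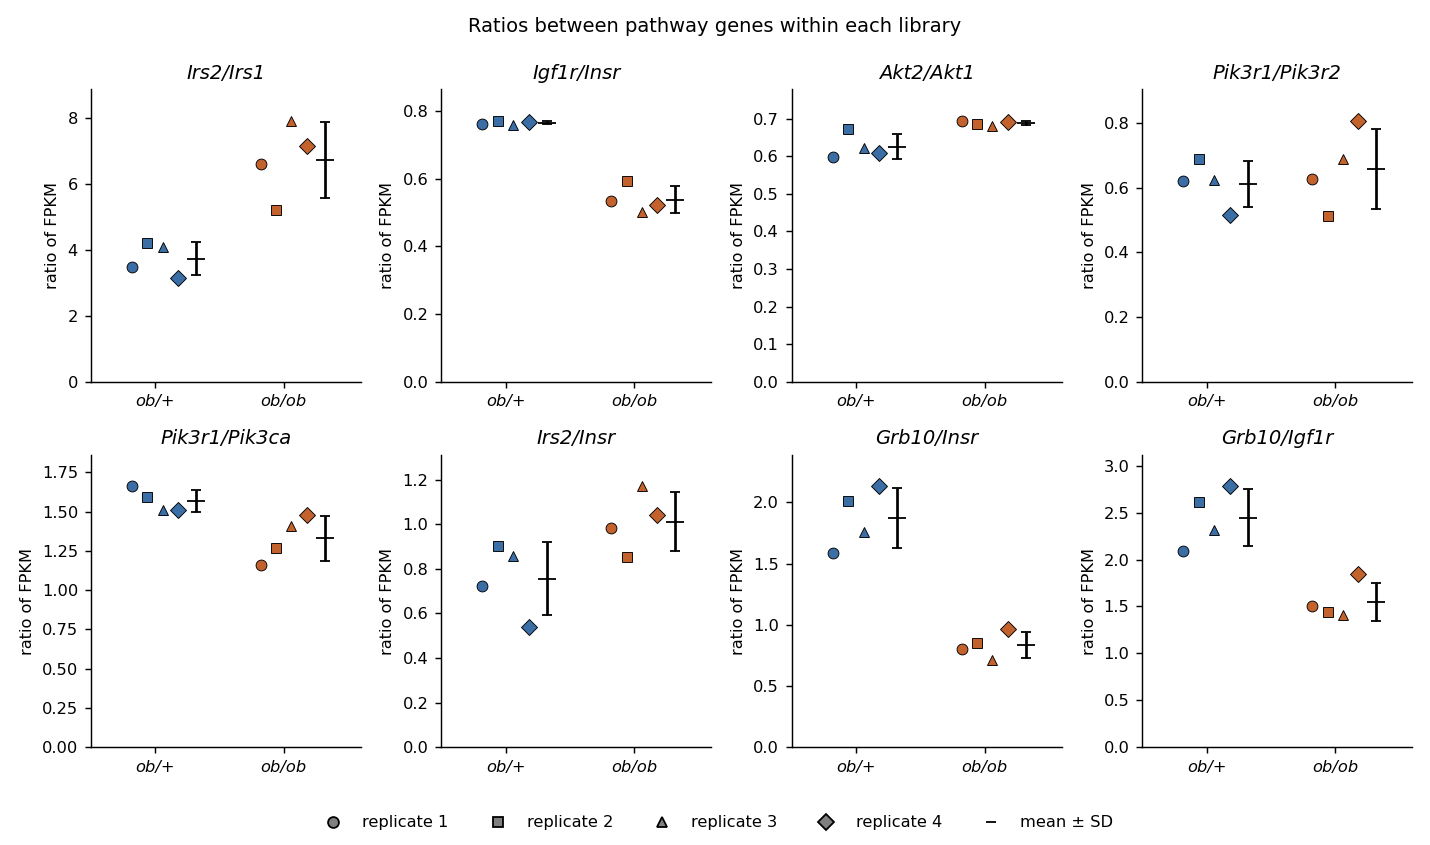
Ratios of FPKM between pathway genes within each library (y axes, each from 0) in ob/+ (blue) and ob/ob (orange), with replicate numbers by marker shape and the mean ± SD as a bar. Igf1r/Insr sits at 0.76 to 0.771 in all 4 ob/+ libraries and at 0.502 to 0.594 in ob/ob, and Irs2/Irs1 at 3.15 to 4.21 and 5.19 to 7.91.

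Pik3r1 (chromosome 13, 101680563 to 101768217, minus strand) encodes p85 alpha, a regulatory subunit that ties PI3-kinase to the IRS proteins. Its levels were 9.28, 9.44, 8.79 and 5.82 FPKM in ob/+ 1 to 4 and 5.98, 6.37, 7.89 and 7.34 in ob/ob 1 to 4. Each ob/ob library lay below ob/+ 1 to 3 and above ob/+ 4. The groups differed by -0.23 ± 0.14 on the log2 scale (SE, 95% interval -0.51 to 0.06, limma adjusted p = 0.272), and Pik3r1 passed as lower without ob/+ 4 (-0.37, adjusted p = 0.00527). The catalytic subunit gene Pik3ca was at 5.3 ± 0.969 in ob/+ and 5.18 ± 0.295 FPKM in ob/ob (SD, n = 4, limma adjusted p = 0.956). Pik3r1 over Pik3ca was 1.51 to 1.66 in ob/+ and 1.16 to 1.48 in ob/ob, without overlap (log2 difference -0.24, exact permutation p = 0.0286, adjusted p = 0.0381). On leaving out 1 library the log2 difference stayed at -0.3 to -0.18 without overlap. The exact permutation p was 0.0571 without any 1 ob/+ library, above the 0.0286 that such a test can reach. Pik3r1 over Pik3r2, the gene of p85 beta, overlapped between the groups (exact permutation p = 0.629). None of the 7 other tested PI3-kinase subunit genes passed the limma test (2 at an unadjusted p under 0.05), where 18.8% of all tested genes were called. Without ob/+ 4 there were 2 lower, in a fit that called 32.8% of all tested genes lower.

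Akt1 (chromosome 12, 112653821 to 112674884, minus strand) was at 50.2, 42.8, 46.2 and 43.7 FPKM in ob/+ 1 to 4 and at 33.1, 33.2, 34.3 and 28.1 in ob/ob 1 to 4. Each ob/ob library lay below each ob/+ library, ob/+ 4 included. Akt1 fell by 0.49 ± 0.1 on the log2 scale (SE, 95% interval -0.7 to -0.29, limma adjusted p = 0.000807), and Akt1 passed as lower in all 23 alternatives, at -0.79 to -0.38.

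Akt2 (chromosome 7, 27591552 to 27640826, plus strand), the form best known for glucose uptake in muscle and fat, was at 30.1, 28.9, 28.8 and 26.6 FPKM in ob/+ 1 to 4. The ob/ob libraries held 23, 22.8, 23.4 and 19.4 FPKM, below each ob/+ library. The log2 fold change was -0.35 ± 0.1 (SE, 95% interval -0.57 to -0.14, limma adjusted p = 0.0158). The call held in 19 of 23 alternatives. It was lost when libraries were scaled without the 10 most abundant genes (-0.24, adjusted p = 0.29), and without ob/+ 1 (0.0639), ob/+ 3 (0.0516) or ob/ob 4 (0.076).

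Akt2 over Akt1 was 0.599 to 0.674 in ob/+ and 0.681 to 0.695 in ob/ob, a small difference without overlap (log2 difference 0.14, exact permutation p = 0.0286, adjusted p = 0.0381). On leaving out 1 library the log2 difference stayed at 0.12 to 0.17 and the groups still did not overlap. The exact permutation p was 0.0571 without any 1 ob/ob library, above the 0.0286 that such a test can reach. Of 16 other tested genes around AKT, its upstream kinase, the mTOR complexes and downstream kinases, 1 rose and none fell (limma, 3 at an unadjusted p under 0.05, 18.8% of all tested genes called). Without ob/+ 4 there were 8 lower, in a fit that called 32.8% of all tested genes lower. The gene that rose was Sgk1, a kinase related to AKT (log2 fold change 0.43 ± 0.13 SE, adjusted p = 0.0223), a call lost in 4 of 8 fits that left out 1 library.

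Socs3 (chromosome 11, 117966079 to 117970047, minus strand) was at 2.51, 4, 3.27 and 2.76 FPKM in ob/+ 1 to 4 and at 4.54, 7.58, 6.14 and 4.75 in ob/ob 1 to 4. Each ob/ob library lay above each ob/+ library. Socs3 rose by 0.7 ± 0.15 on the log2 scale (SE, 95% interval 0.39 to 1, limma adjusted p = 0.00133), and Socs3 passed as higher in each of the 22 alternatives that tested it, at 0.45 to 0.85. It did not reach the stricter filter of a mean of 5 FPKM.

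Of 16 other listed genes that STAT3 is known to induce, 13 had a value and 10 were tested. In the limma test 0 of these 10 passed (2 at an unadjusted p under 0.05). The count of higher genes moved from 0 in 6 of 23 alternatives, and that of lower genes in 2. The median of the 10 tested targets was 0.04 on the log2 scale, against -0.07 over all tested genes, of which 18.8% were called. Socs3 also belongs to the genes that respond quickly to stimulation. Of 18 tested immediate early genes 1 passed, Fos, at 14.1 to 167 FPKM in ob/ob and 3.19 to 7.03 in ob/+ (limma adjusted p = 0.0425), and 7 of the 18 had an unadjusted p under 0.05. The Fos call held in 13 of 23 alternatives and, on leaving out 1 library, only without ob/ob 4. Without ob/ob 4 the list had 6 higher genes, without ob/ob 2 it had 1, and without any other library 0. The median over these 18 genes was 0.56 on the log2 scale. Among the ob/ob libraries Fos was highest in ob/ob 2, as Socs3 was, but it was lowest in ob/ob 4 and Socs3 in ob/ob 1. The part of handling or of cell makeup in the level of Socs3 was not tested.

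Lepr (chromosome 4, 101717404 to 101815352, plus strand), the leptin receptor gene, had low values around the filter of 1 FPKM. It was at 1.02, 0.89, 1.04 and 0.84 FPKM in ob/+ 1 to 4 and at 0.56, 0.78, 1.36 and 0.92 in ob/ob 1 to 4. The ob/ob libraries spread on both sides of the ob/+ libraries (exact two-sided permutation p = 0.714). In the fit without a filter the log2 fold change was -0.05 (limma adjusted p = 0.842). The values are per gene, so the long signalling form and the short forms of the receptor are not told apart.

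Downstream of the leptin receptor Jak2 was at 6.2 ± 0.865 and 5.89 ± 0.785 FPKM and Stat3 at 21.1 ± 0.963 and 19.1 ± 1.76 in ob/+ and ob/ob (SD, n = 4, limma adjusted p = 0.775 and 0.386). Of the 10 tested JAK and STAT genes 1 changed, Jak1, 10% of the list against 18.8% of all tested genes. Without ob/+ 4 there were 3 lower, in a fit that called 32.8% of all tested genes lower. Jak1, which serves cytokine receptors of the gp130 family, was at 21.4 to 27 FPKM in ob/+ and 17 to 20.9 in ob/ob and fell by 0.43 ± 0.11 on the log2 scale (SE, limma adjusted p = 0.00604). It passed in 22 of 23 alternatives.

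Of the receptor genes listed beside these, Il6st and Lifr also fell. Il6st, which encodes gp130, the signalling chain shared by receptors for interleukin 6 and LIF, was at 7.88 to 13.3 FPKM in ob/+ and 4.69 to 7.68 in ob/ob and fell by 0.69 ± 0.15 (SE, limma adjusted p = 0.00202). Lifr, the LIF receptor gene, was at 11.6 to 16.2 and 7.69 to 8.65 FPKM and fell by 0.76 ± 0.12 (SE, limma adjusted p = 4.86e-05). Both were called lower in all 23 alternatives, and neither overlapped between the groups. The third receptor gene that fell was Lrp1, a large endocytic receptor (-0.42 ± 0.14 SE, adjusted p = 0.0353), whose call held in 13 of 22 alternatives. Of the 12 tested genes listed as other receptors 3 fell and none rose, 25% of the list against 18.8% of all tested genes. Without ob/+ 4 there were 6 lower, in a fit that called 32.8% of all tested genes lower. The oncostatin M receptor gene Osmr, whose protein also pairs with gp130, was higher in each ob/ob library, at 1.74 to 2.04 FPKM against 1.24 to 1.58 (log2 fold change 0.25), and did not pass (limma adjusted p = 0.148). The interleukin 6 receptor gene Il6ra was at 36.2 ± 11.8 and 45.2 ± 1.7 FPKM (SD, n = 4, limma adjusted p = 0.348). Both were chosen after their values were seen.

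Among the adaptors that bind the activated receptors Grb10 changed most. GRB10 protein binds the insulin and IGF1 receptors and inhibits their signalling, and the gene is imprinted. It was at 11.1, 14.5, 13.5 and 10.5 FPKM in ob/+ 1 to 4 and at 5.34, 5.45, 5.72 and 6.32 in ob/ob 1 to 4, 0.46 times the ob/+ mean. It fell by 0.99 ± 0.12 on the log2 scale (SE, limma adjusted p = 1.68e-06) and was called in all 23 alternatives. Grb10 over Insr was 1.59 to 2.13 in ob/+ and 0.709 to 0.965 in ob/ob (log2 difference -1.17, exact permutation p = 0.0286, adjusted p = 0.0381). Grb10 over Igf1r was 2.09 to 2.78 and 1.41 to 1.85, also without overlap (-0.66, exact permutation p = 0.0286), and at -0.59 without ob/+ 4, still without overlap (exact p = 0.0571). It was the only 1 of 16 tested receptor brake genes, a list that excludes Socs3, to pass the limma test. That is 6.25% of the list against 18.8% of all tested genes. Without ob/+ 4 there were 5 lower, in a fit that called 32.8% of all tested genes lower.

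Of 12 tested receptor adaptor genes, a list without Grb10, 2 fell and none rose, 16.7% of the list against 18.8% of all tested genes. Without ob/+ 4 there were 6 lower, in a fit that called 32.8% of all tested genes lower. Gab1, a docking protein for PI3-kinase and SHP2, was at 1.82 to 2.63 FPKM in ob/+ and 0.88 to 1.32 in ob/ob (-0.64 ± 0.13 SE, limma adjusted p = 0.000709). Shc2, an adaptor of the RAS arm, was at 8.18 to 10.9 and 4.07 to 5.85 FPKM (-0.83 ± 0.13 SE, adjusted p = 3.12e-05). Neither overlapped between the groups. The 9 neural and Schwann cell markers summed to 71.9 to 91.6 FPKM in ob/+ and 45.7 to 56.2 in ob/ob, and their part in these falls was not tested.

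**Figure D4:**
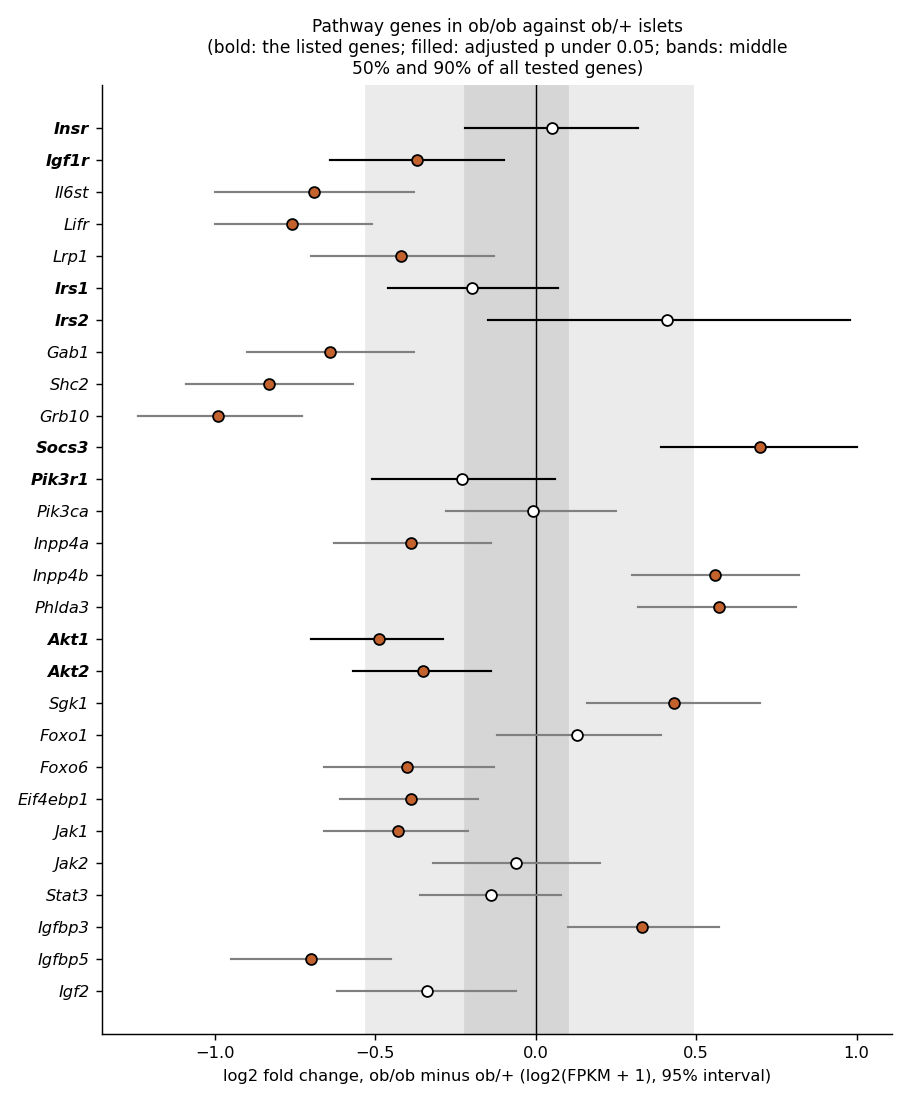
Log2 fold changes of ob/ob over ob/+ (x axis, log2(FPKM + 1) scale, with 95% intervals) for the tested members (bold) and other pathway genes, filled where the adjusted p was under 0.05. Grey bands hold the middle 50% (-0.22 to 0.1) and 90% (-0.53 to 0.49) of all tested genes. Il6st, Lifr, Gab1, Shc2, Grb10 and Igfbp5 lie left of the bands and Socs3, Inpp4b and Phlda3 right of them, while Akt1, Akt2 and Igf1r lie within the wider band. Inpp4b met the filter only through its ob/ob libraries.

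Of 16 tested lipid phosphatase and AKT inhibitor genes 2 rose and 1 fell, 18.8% of the list and the same share as over all tested genes. On leaving out 1 library the lower count was 0 to 2, and 7 without ob/+ 4, where 32.8% of all tested genes were lower. Phlda3, whose protein competes with AKT for membrane lipid, was at 2 to 2.55 FPKM in ob/+ and 3.61 to 3.98 in ob/ob (0.57 ± 0.12 SE, limma adjusted p = 0.00107). Inpp4b, a phosphatase of PI3-kinase lipids, was at 0.57 to 0.9 and 1.26 to 1.94 FPKM (0.56 ± 0.13 SE, adjusted p = 0.00202). Each ob/+ library was under 1 FPKM, so Inpp4b met the filter only through the ob/ob libraries, where it was high. Its place among the 2 that rose thus rests in part on the filter. Inpp4a fell by 0.39 ± 0.12 (SE, adjusted p = 0.0233), a call lost in 5 of 8 fits that left out 1 library.

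Of 17 tested AKT substrate genes 3 fell and 1 rose, 23.5% of the list against 18.8% of all tested genes. On leaving out 1 library the lower count was 1 or 2, and 6 without ob/+ 4, where 32.8% of all tested genes were lower. Eif4ebp1, the repressor of cap-dependent translation, fell by 0.39 ± 0.1 and Foxo6 by 0.4 ± 0.13 (SE, limma adjusted p = 0.00819 and 0.031), and the Foxo6 call held in 15 of 23 alternatives. Acly, an enzyme that makes acetyl-CoA in the cytosol, fell by 0.26 ± 0.09 (adjusted p = 0.0477), a call that held in 8 of 23 alternatives. The ribosomal protein gene Rps6 rose by 0.34 ± 0.08 (adjusted p = 0.00494). Foxo1, the main FOXO gene of beta cells, was at 15.1 ± 2.66 and 16.5 ± 0.942 FPKM (SD, n = 4, adjusted p = 0.492).

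Of 18 tested FOXO targets 3 rose and 2 fell, 27.8% of the list against 18.8% of all tested genes. On leaving out 1 library there were 1 to 3 higher and 1 lower, but 4 and 6 without ob/+ 4. The fit without ob/+ 4 called 9.42% of all tested genes higher and 32.8% lower. Pdk4, which restrains pyruvate oxidation, was at 6.93 to 14.4 FPKM in ob/+ and 1.89 to 2.85 in ob/ob (-1.64 ± 0.18 SE, limma adjusted p = 6.48e-06). Ccng2, a cyclin linked to cell cycle arrest, was at 5.32 to 7.81 and 10.5 to 12.4 FPKM (0.71 ± 0.12 SE, adjusted p = 0.000156). Txnip, also a strong glucose-responsive gene, rose by 1.33 ± 0.3 (adjusted p = 0.0267) and Sod2, a mitochondrial antioxidant enzyme, fell by 0.35 ± 0.11 (adjusted p = 0.0326). On leaving out 1 library the Txnip call was lost in 5 of 8 fits and the Sod2 call in each but the fit without ob/+ 4.

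In the RAS and MAP kinase arm 1 of 18 tested genes rose and 1 fell, 11.1% of the list against 18.8% of all tested genes. Without ob/+ 4 there were 8 of the 18 lower, in a fit that called 32.8% of all tested genes lower. Dusp6, a phosphatase of ERK that ERK signalling itself induces, was at 2.85 to 5.1 FPKM in ob/+ and 6.73 to 9.96 in ob/ob (0.86 ± 0.15 SE, limma adjusted p = 0.000317) and was called in all 23 alternatives. Spred1, an inhibitor of RAS signalling, fell by 0.42 ± 0.13 (SE, adjusted p = 0.0236), a call lost in 5 of 8 fits that left out 1 library. In the CREB arm, through which cAMP is known to induce Irs2, 2 of 12 tested genes rose and 1 fell. That is 25% of the list against 18.8% of all tested genes. Without ob/+ 4 there were 4 lower, where 32.8% of all tested genes were lower. With all libraries the called genes were Crem (0.44 ± 0.13 SE, adjusted p = 0.0146), Nr4a2 (0.54 ± 0.15 SE, adjusted p = 0.0128) and the coactivator Crtc1 (-0.41 ± 0.13 SE, adjusted p = 0.025). The Crtc1 call was lost in 5 of 8 fits that left out 1 library.

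Of the ligand genes Ins2 passed, at 279293 to 356774 FPKM in ob/+ and 422742 to 503843 in ob/ob (0.56 ± 0.09 SE, limma adjusted p = 5.4e-05). Its near-identical paralog Ins1 makes the separate values of both uncertain, and the call held in 19 of 23 alternatives. It was lost at a log2 fold change of 0.63 after centring on the median (adjusted p = 0.0886), 0.62 on the upper quartile (0.208), 0.26 when acinar genes were not part of the sum (0.0683) and 0.56 with eBayes without robust (0.456). Igf2 was at 2.13 ± 0.535 and 1.46 ± 0.337 FPKM (SD, n = 4, limma adjusted p = 0.0882), and Igf1 was below the filter at 0.25 to 1.47 FPKM. Of 5 tested IGF binding protein genes 1 rose and 1 fell, 40% of the list against 18.8% of all tested genes. Without ob/+ 4 there were 0 higher and 2 lower, where 9.42% of all tested genes were higher and 32.8% lower. Igfbp5 was at 4.92 to 6.55 FPKM in ob/+ and 2.91 to 3.39 in ob/ob (-0.7 ± 0.12 SE, adjusted p = 0.000131). Igfbp3 rose by 0.33 ± 0.11 (adjusted p = 0.0421), a call that held in 13 of 23 alternatives.

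Over the ligand, receptor, adaptor, PI3-kinase, inhibitor, AKT, MAP kinase and JAK-STAT lists together, 7 of 132 tested genes rose and 13 fell, with the 9 members left out. These 20 genes were 15.2% of the 132, where 18.8% of all tested genes were called. The median log2 fold change was -0.12, against -0.07 over all tested genes. Without ob/+ 4 there were 53 lower and 7 higher genes of the 132. That fit called 42.2% of all tested genes, 32.8% lower and 9.42% higher. Without ob/+ 1 or ob/ob 1 there were 8 lower genes of the 132.

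**Figure D5:**
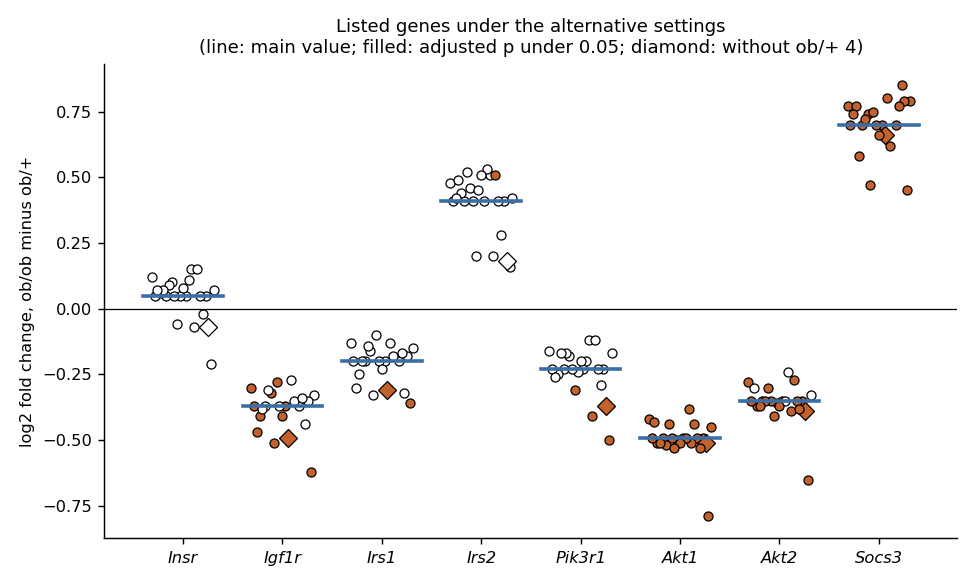
Log2 fold change of the 8 tested genes (y axis) under each alternative setting (points, filled where the adjusted p was under 0.05), with the main value as a line and the fit without ob/+ 4 as a diamond. Akt1 and Socs3 are filled under each setting that tested them, and Insr has points on both sides of 0.

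For each called member the tested genes of at least 5 FPKM with the most similar pattern were found by Pearson's r over the 8 libraries, after the mean of each genotype was taken out, among 7501 genes. Igf1r was most like Sort1 (r = 0.997), Fyco1 (0.996) and Obsl1 (0.995). Akt1 was most like Sdr39u1 (0.993), Cpne8 (0.978) and Ssbp4 (0.977), and Akt2 most like Sema4b (0.997), Crmp1 (0.991) and Tfe3 (0.987). Socs3 followed Gyg (0.944), Fiz1 (0.922) and Btd (0.922) less closely, and its r with Fos was 0.447. The libraries share depth, acinar content and the length trend across genes, so a high r over 8 libraries is a description only.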

How the data were processed

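RNA from islets, isolated with collagenase and hand-picked, was sequenced in 8 libraries, per the labels' protocols, and genotype came from the titles. The authors deposited FPKM values, 1 file a library. The unit was inferred from the values (2 decimals, unequal sums). Trimmomatic 0.36, DESeq2 1.20.0, mm10 and GRCm38 are named, without a role, in the submitters' processing notes. Aligner and quantifier: not given in the sources used here. Of 20715 listed genes 3314 had no value. FPKM carries no counts, so depth is unknown, count tests were not run, and values of other genes drop where insulin or acinar transcripts take more of a library.

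The 11747 genes that reached 1 FPKM in 4 or more libraries were fitted on log2(FPKM + 1) with limma 3.58.1 (R 4.3.3, statmod 1.5.0), using trended, robust eBayes. Tests were two-sided and p-values were Benjamini-Hochberg adjusted over all of these genes. Such fold changes understate the change of low genes, and ratios called fold are of mean FPKM. The fit was tested on simulated data for 11747 genes in groups of 4. It recovered 43% of 100 changes of 0.5 on the log2 scale and 92% of 100 changes of 1. A gene that did not pass may therefore still differ between the groups. Ratios within libraries used exact permutation tests over 70 assignments. Gene positions and lengths are from GENCODE (GRCm38) and upstream sequences from RefSeq (GRCm38.p6).

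The members, lists and alternatives were chosen with earlier results of these data known. Named genes were the members, Lep, 9 genes set with the design, genes of 4 lists that passed, up to 4 passing genes of each other list, and the 3 genes most like each called member. Irs3, Irs4, Il6ra, Osmr, the cell markers, Pik3r2, Pik3r3, Insrr, Ins1, Igf1, Cish and Socs2 were added after their values were seen. Some genes named by the rule are not reported here. No libraries were duplicates (r 0.978 to 0.993 within and 0.955 to 0.965 between groups).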

Additional observations from a re-analysis of the deposited data

Results flagged for a closer look

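In 128 groups of 4 libraries examined for a value far from the others of its group, 8 values stood apart, where chance gives about 1 in 20. Among the members these were Insr in ob/ob 3, at 8.07 FPKM against 6.38 to 6.63 in the other ob/ob libraries, and Akt2 in ob/ob 4, at 19.4 FPKM against 22.8 to 23.4. The library ob/+ 4 was far below the other ob/+ libraries for Dusp6 (2.85 FPKM against 4.78 to 5.1), Gab1 (1.82 against 2.56 to 2.63), Jak1 (21.4 against 26.7 to 27) and Pik3ca (3.86 against 5.6 to 5.92). In ob/+ 2 Cish stood at 31.4 FPKM against 4.07 to 7.47 in the other ob/+ libraries, and Irs4, near 0 in each library, at 0.07 against 0.01 to 0.02.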

How the results depend on the processing

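Akt1 stayed lower and Socs3 higher in each alternative that tested them, and Igf1r/Insr, Grb10/Insr and Irs2/Insr kept their side of the threshold. The median log2 fold change over all genes moved by 0.1 when libraries were scaled without the 10 most abundant genes and by -0.26 when scaled without the acinar genes. The cause of a changed call was not tested. Genes called (2208) were 3441 with median centring, 3465 with upper-quartile scaling, 7595 when scaled without the acinar genes, 1469 at a mean of 5 FPKM, 3317 with an acinar covariate, 4183 without ob/+ 4 and ob/ob 1 (highest in acinar transcripts), 3724 with the length trend removed (chosen after seeing the data), and 1546 to 4955 on leaving out 1 library. Higher genes (965) were 1846, 1640 and 482 under those 3 scalings, 1901 with the length trend removed and 765 to 1107 leaving out 1 library. Lower genes (1243) were 629 without the 10 most abundant genes, 7113 without the acinar genes, 783 at a mean of 5 FPKM, 2574 with the covariate, 3103 without both libraries and 738 to 3848 leaving out 1. The share of higher calls (43.7%) was 53.6% with median centring and 47.3% with upper-quartile scaling.

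Of the members, 0 were higher at a mean of 5 FPKM, where Socs3 was not tested, and 2 with the length trend removed. Lower members were 1 without the 10 most abundant genes, 5 without the acinar genes and 1 to 5 leaving out 1 library. Pathway genes that were higher (7) came to 13 with median centring and 13 with upper-quartile scaling, 3 without the acinar genes and 19 with the length trend removed. Those lower (13) came to 20 with upper-quartile scaling, 6 without the 10 most abundant genes, 86 without the acinar genes, 35 with the covariate, 41 without both libraries, 20 with the length trend removed and 8 to 53 leaving out 1.

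Insr turned to -0.21 without the acinar genes, -0.07 with the covariate and -0.06 without both libraries (-0.07 to 0.11 leaving out 1). Igf1r lost its call at -0.27 without the 10 most abundant genes, -0.37 with no filter, without robust and without trend and robust, and -0.44 at a pseudocount of 0.1 (-0.49 to -0.31 leaving out 1). Irs1 passed at -0.36 without the acinar genes (-0.31 to -0.14 leaving out 1), and Irs2 at 0.51 with the length trend removed (0.18 to 0.53). Pik3r1 passed at -0.5 without the acinar genes, -0.41 with the covariate and -0.31 without both libraries (-0.37 to -0.17). Akt2 lost its call at -0.24 without the 10 most abundant genes (-0.39 to -0.3). Without the acinar genes Foxo1 turned to -0.15 and Ins1 to -0.05. Jak2 turned to 0.01 with median centring, 0.04 without the 10 most abundant genes and 0.03 with the length trend removed, and ran from -0.14 to 0.0 leaving out 1. Pik3ca turned to 0.06 with median centring, 0.03 with upper-quartile scaling, 0.09 without the 10 most abundant genes and 0.08 with the length trend removed (-0.13 to 0.04). Leaving out 1 library, log2 Irs2/Irs1 ran from 0.76 to 0.96, Akt2/Akt1 from 0.12 to 0.17, Pik3r1/Pik3r2 from -0.01 to 0.21, Pik3r1/Pik3ca from -0.3 to -0.18 and Grb10/Igf1r from -0.74 to -0.59. For 42 named genes, 810 of 958 alternative values kept direction and call, 103 lost the call, 30 gained it and 15 turned.

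Whether the same replicate number pairs libraries was not settled. The r of their deviations was -0.22, 0.212, 0.172 and 0.124 for replicates 1 to 4, against -0.189 to 0.194 for pairs of unlike number. With the replicate block 2674 genes were called, 20 pathway genes were lower, and no member's call changed.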

Other observations

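Some pathway genes noticed after their values were seen are given here as values. Insrr, which encodes the insulin receptor-related receptor, a kinase that senses alkaline pH, was at 69.9 to 130.2 FPKM in ob/+ and 66.5 to 96.8 in ob/ob (limma adjusted p = 0.372). Its level was above those of Insr and Igf1r in each library, ob/+ 4 included.

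Among the regulatory subunit genes of PI3-kinase Pik3r3, which encodes p55 gamma, took 23.9% to 27% of the summed FPKM of Pik3r1, Pik3r2 and Pik3r3 in ob/+ and 31.5% to 35.5% in ob/ob. Its own level was at 7.3 ± 1.37 and 9.11 ± 0.852 FPKM (SD, n = 4) and did not pass (limma adjusted p = 0.118). Pik3r2 was at 13.5 ± 1.57 and 10.6 ± 1.58 FPKM (SD, n = 4, adjusted p = 0.073).

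Socs2 and Cish, feedback genes that STAT5 is known to induce, were both highest in ob/+ 2, at 24.7 and 31.4 FPKM. The other ob/+ libraries held 8.69 to 11.5 FPKM of Socs2 and 4.07 to 7.47 of Cish. In that library Socs3 was also the highest of the ob/+ libraries, at 4 FPKM.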
